A study of Homo sapiens with 9 samples.

Results

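The genes described here had a lower level in SH-Sy5y neuroblastoma cells given 10 nM of a miR-1229-3p mimic than in control cells, and nearly the same mean level at 20 nM. They were chosen by 4 conditions on CPM, the count of a gene scaled by the total count of its library. The mean over the 9 libraries was at least 5 CPM, every 10 nM and 20 nM library lay below every Ctrl library, the log2 ratio of the 10 nM to the Ctrl mean was −0.2 or lower, and the log2 ratio of the 20 nM to the 10 nM mean lay within 0.1 of 0. SYNJ2BP, MTOR, MTX3, HIPK2 and SLC25A20 were left out by name, of which SYNJ2BP met the other conditions. The rule found 110 of the 14943 genes in the table, or 0.942% of the 11676 genes of at least 5 CPM. Because the rule used all 9 libraries and all 3 contrasts, the levels below are a description of the chosen genes, and no test on these levels supports the choice.

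SH-Sy5y is an established human neuroblastoma cell line. Ctrl wells received 40 pmol of a negative control small RNA and 0 pmol of mimic. The 10 nM wells received 20 pmol of miR-1229-3p precursor together with 20 pmol of the negative control, and the 20 nM wells 40 pmol of precursor with 0 pmol of the negative control, so the total amount of transfected RNA was the same and each dose also had its own amount of negative control. PolyA RNA was sequenced 48 h after transfection from 3 libraries in each of the 3 groups. The labels number the libraries N1 to N3 in each group without saying whether the numbers stand for separate cultures, so the p-values measure only the spread between these libraries. Every library came from this 1 line, in which the mimic was added by transfection.

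A microRNA is a short RNA that, bound to an Argonaute protein, pairs with messenger RNAs mostly through its seed, the bases next to its 5′ end. Pairing in a 3′ UTR lowers the stability and the translation of the messenger, and sites in a coding sequence act more weakly in general. A longer match to the seed, ending opposite an A, marks the stronger kinds of site. A mimic raises the amount of a microRNA far above the cell's own, and part of the genes that change then carry no site and change downstream of others.

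The mature sequence of miR-1229-3p is given first, with its seed (bases 2 to 8) in capitals, because the matches among the chosen genes were counted against it. The entry in RefSeq has 23 bases and lies on chr5:179798278-179798300, minus strand (GRCh38.p14).
hsa-miR-1229-3p: cUCUCACCacugcccucccacag

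An 8-mer match to this seed reads GGTGAGAA, a 7-mer match GGTGAGA or GTGAGAA, and a 6-mer match GTGAGA, each read on the strand of the messenger only. The shorter matches lie within the longer, and each site was counted once as its longest kind. The 3′ UTR windows below belong to the chosen genes with an 8-mer in the longest annotated 3′ UTR, and are shown because these are the strongest matches among the 110 genes. Capitals mark the match. Coordinates are those of GRCh38.
TRIM56 3′ UTR, chr7:101093872-101093901, plus strand: aaaaataaatgttaaataaatgGGTGAGAA
TRIM56 3′ UTR, chr7:101097575-101097604, plus strand: ctagatctcacctgaggtgctgGGTGAGAA
PAK3 3′ UTR, chrX:111223258-111223287, plus strand: ggcagtgggaaagtcagggaagGGTGAGAA
PAK3 3′ UTR, chrX:111224734-111224763, plus strand: ctaactcaccaaagaaattttaGGTGAGAA
POLQ 3′ UTR, chr3:121431522-121431551, minus strand: tgcctctttctgtttgtggcatGGTGAGAA
GABPB2 3′ UTR, chr1:151124023-151124052, plus strand: ggtggtggcgcatcatcatactGGTGAGAA
CCNT1 3′ UTR, chr12:48690357-48690386, minus strand: tcctatccttgtaccttcaaagGGTGAGAA
CCNT1 3′ UTR, chr12:48689536-48689565, minus strand: cagtctatgcaactcatcaaatGGTGAGAA
RASAL2 3′ UTR, chr1:178473330-178473359, plus strand: tgctacttcacaatggcgatgtGGTGAGAA
CLCN5 3′ UTR, chrX:50095986-50096015, plus strand: taataatgatagcaaagacaatGGTGAGAA
SUPT6H 3′ UTR, chr17:28701876-28701905, plus strand: tggcagggaggaggaagaggaaGGTGAGAA
CUL5 3′ UTR, chr11:108104880-108104909, plus strand: acattgggaaacggcagatgtaGGTGAGAA
HUNK 3′ UTR, chr21:32000483-32000512, plus strand: cacttgacagggtgcagtcattGGTGAGAA

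The 8-mer of POLQ stood 775 bases into a 3′ UTR of 873 bases, and that of SUPT6H 273 bases into 1054. The others lay in longer 3′ UTRs, up to 10908 bases in RASAL2. The 8-mer was also found in the 3′ UTR of the canonical transcript of these 10 genes. In ZNF226 the longest 3′ UTR held an 8-mer too, but in the canonical transcript those bases were coding.

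The next windows are coding and are shown because the same 8 bases recurred in the zinc finger genes among the 110. All 6 windows of ZNF829 and 2 of ZKSCAN4 are printed, together with that of MKI67, which is no zinc finger gene.
ZNF829 coding sequence, chr19:36892078-36892107, minus strand: tcaacatcagaggattcacactGGTGAGAA
ZNF829 coding sequence, chr19:36891994-36892023, minus strand: tgatcatcagagaattcacactGGTGAGAA
ZNF829 coding sequence, chr19:36891910-36891939, minus strand: tctacatctgagaattcatactGGTGAGAA
ZNF829 coding sequence, chr19:36891826-36891855, minus strand: tcagcatcagagaatgcatactGGTGAGAA
ZNF829 coding sequence, chr19:36891742-36891771, minus strand: taaccatcacagaattcatgctGGTGAGAA
ZNF829 coding sequence, chr19:36891574-36891603, minus strand: tcgacatcagagaattcacactGGTGAGAA
ZKSCAN4 coding sequence, chr6:28245717-28245746, minus strand: taaacacaggagaatccacactGGTGAGAA
ZKSCAN4 coding sequence, chr6:28245633-28245662, minus strand: cattcatcagagagtccacactGGTGAGAA
MKI67 coding sequence, chr10:128107194-128107223, minus strand: cacacccaaaccagcagtaagtGGTGAGAA

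The starts of the ZNF829 matches were 84 bases apart in 4 of 5 steps and 168 bases apart in the other. The printed ZKSCAN4 windows were also 84 bases apart, as were those of ZNF808, and those of ZNF470 stood 168 bases apart. The third ZKSCAN4 8-mer started 417 bases after the second and the ZNF445 8-mers 393 bases apart, neither a multiple of 84. C2H2 zinc finger proteins are strings of repeated finger units joined by a linker of conserved sequence.

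Library totals ran from 17423969 to 28192775 estimated counts. Replicate 3 of 20 nM stood apart from the others, with a value of 47.4 on the first principal component (30.4% of the variance) against −17.1 to 7.72 for the other 8 libraries. Its counts differed from those of the other 20 nM libraries by a chi-square per degree of freedom of 47 and 37.3, against 4.78 to 8.49 for the other pairs within a group. The 12 noradrenergic neuroblastoma markers summed to 6940 to 7090 CPM in Ctrl, 7220 to 7800 CPM at 10 nM and 6850 to 7840 CPM at 20 nM. Every 10 nM library thus lay above every Ctrl library, while the 20 nM range took in those of both other groups. The part of this shift in the results was not tested. The 3 epithelial markers in the table stayed at or under 2.88 CPM in sum, and the 1 leukocyte marker at or under 1.66 CPM. The 9 mesenchymal markers of 10 in the table summed to 502 to 592 CPM in Ctrl, 535 to 611 CPM at 10 nM and 607 to 750 CPM at 20 nM, so that every 20 nM library lay above every Ctrl library, and their part in the results was not tested. None of these markers was among the 110 genes.

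The drop at 10 nM was small in most of the 110 genes, just past the limit of the rule. The median log2 ratio of the 10 nM to the Ctrl mean was −0.25 and the range −0.62 to −0.20, while the median over all genes of at least 5 CPM was −0.00. The median of the 20 nM to Ctrl ratio was −0.31, with a range of −0.63 to −0.13. Between the doses the log2 ratio had a median of −0.05, and the 20 nM mean was the lower of the pair in 82 of the 110 genes and the higher in 28. Without 20 nM replicate 3 that median was 0.01, and the median difference in the edgeR model described below was 0.02.

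**Figure D1:**
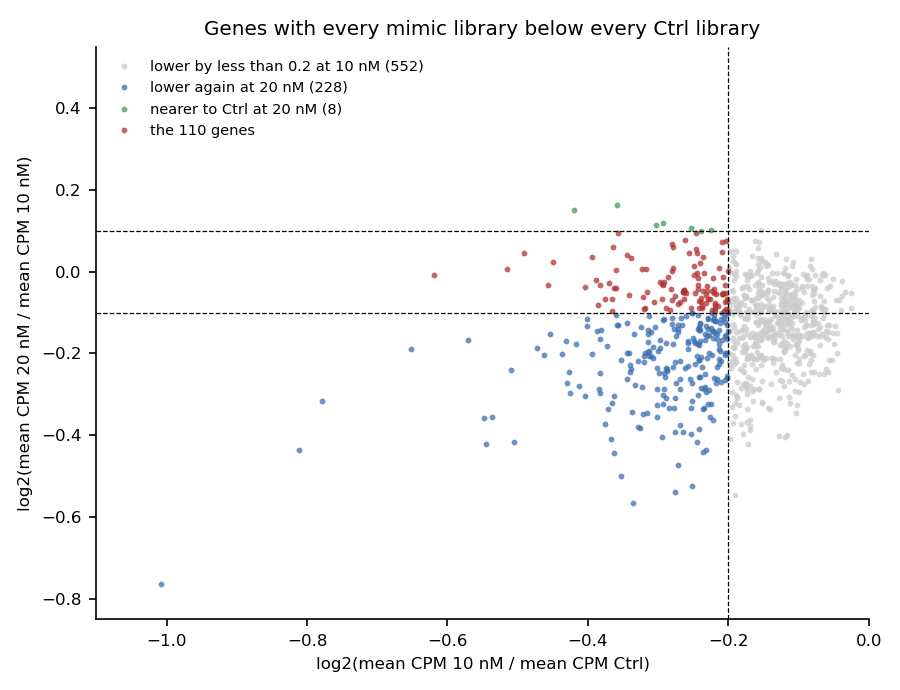
Each point is a gene of at least 5 CPM whose 6 mimic libraries all lay below its 3 Ctrl libraries. The x axis gives the log2 ratio of the 10 nM to the Ctrl mean and the y axis that of the 20 nM to the 10 nM mean. Dashed lines mark the limits of the rule at −0.2 and at 0.1 either side of 0, within which the 110 genes (red) lie. The 228 genes below the lower line (blue) were lower again at 20 nM. Of the 899 genes, 1 lies outside the axes and SYNJ2BP is not drawn.

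Of the 11676 genes of at least 5 CPM, 899 (7.7%) had all mimic libraries below all Ctrl libraries. Those with a log2 ratio of −0.2 or lower at 10 nM split into the 110 genes here, 228 that were lower again by more than 0.1 at 20 nM, 8 that were nearer to Ctrl by more than 0.1, and SYNJ2BP. In the plot of the drop against the step the 110 genes form no cloud of their own but the part of a continuous scatter that the limits enclose.

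Genes just inside and just outside each limit were as follows. At the level limit ENSG00000269737.2 (mean 5.14 CPM), PCDHA3 (5.16 CPM) and PDE6A (5.28 CPM) were inside, and CDHR3 (4.76 CPM), PMS2P6 (4.66 CPM) and PAIP2B (4.54 CPM) outside. For the drop, HIVEP1 (−0.2004), TTF1 (−0.2013) and ADGRV1 (−0.2024) were inside, and PEX13 (−0.199), HUS1 (−0.1988) and DGCR8 (−0.1973) outside. For the step, MND1 (−0.0972), PHKA2 (−0.0964) and ENSG00000288227.1 (0.0949) were inside, and ENSG00000276709.4 (−0.1003), WDFY2 (−0.1003) and GXYLT1 (0.1004) outside.

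Library by library, the median log2 ratio to the Ctrl mean over the 110 genes was 0.03, −0.04 and −0.01 in Ctrl, −0.24, −0.27 and −0.27 at 10 nM, and −0.23, −0.30 and −0.41 at 20 nM. All genes of at least 5 CPM had medians between −0.008 and 0.007 in 8 of the libraries and −0.053 in 20 nM replicate 3. Replicate 3 of 20 nM was the lowest of its group for 62 of the 110 genes and the highest for 31. Without it the step lay within 0.1 of 0 for 86 of the 110 genes, below −0.1 for 13 and above 0.1 for 11, with a median of 0.01. The 228 genes that were lower again had 20 nM library medians of −0.39, −0.46 and −0.67.

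**Figure D2:**
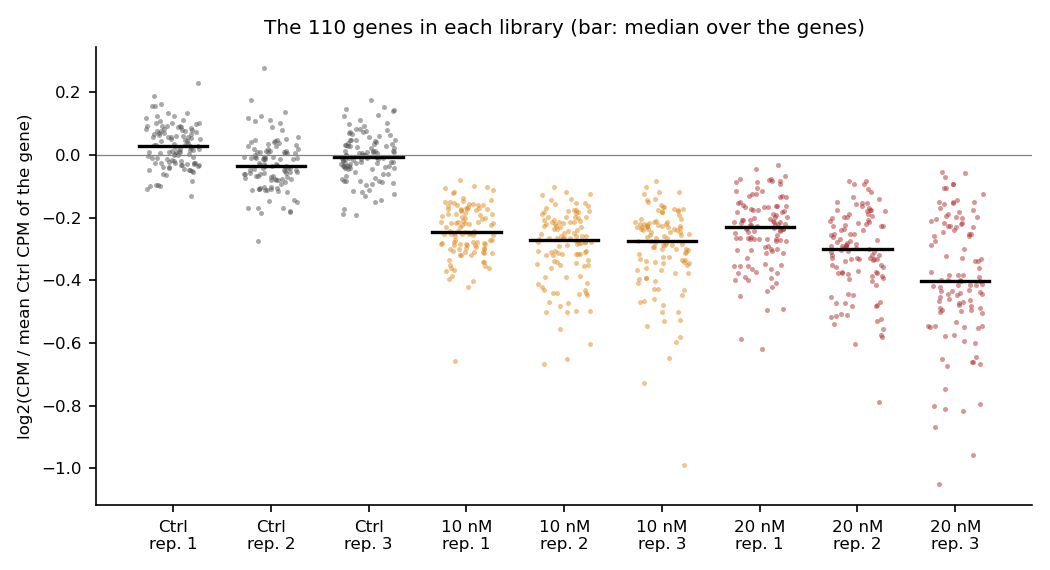
Each point is 1 of the 110 genes in 1 library, as the log2 ratio of its CPM to its own Ctrl mean (y axis), for the 9 libraries (x axis). Black bars are medians over the genes. The 10 nM libraries sit at −0.24 to −0.27, 20 nM replicates 1 and 2 at −0.23 and −0.30, and 20 nM replicate 3 at −0.41 with a wider spread.

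In the model fitted to all 14943 genes (edgeR's quasi-likelihood test with 1 surrogate variable and Benjamini-Hochberg adjustment), 10 of the 110 genes were called lower at 10 nM, where 0.428% of all genes were. At 20 nM 29 were called lower against 6.08% of all genes, and these included the 10. None was called higher at either dose. As the rule had used the same contrasts, these counts say nothing about the genes beyond the rule. The 10 were PITPNB, SNX8, CTNNA1, PBRM1, CBL, SS18, SUPT6H, PIGM, CPXM1 and EFR3B. Their Ctrl means lay between 51.3 and 231 CPM, and the median of the 100 genes not called was 23.6 CPM. When replicate numbers entered the model as a block and the surrogate variable was dropped, 0 of the 110 were called lower at 10 nM (94 had an unadjusted p under 0.05, and 0.0201% of all genes were called), and the adjusted p of the 10 ran from 0.0891 to 0.504. DESeq2 called 21 lower at 10 nM, the 10 included, and 0.756% of all genes. At 20 nM the block called 41 (6% of all genes), of which 19 were among the 29. Unless another fit is named, calls and adjusted p-values of single genes below are those of the fit without the block. With the block none of the 10 calls at 10 nM held, and of the 29 calls at 20 nM 19 did.

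The calls rested much on 1 library and on the surrogate variable. With no surrogate variable, 0 of the 110 genes were called lower at 10 nM by edgeR (86 had an unadjusted p under 0.05) and 12 at 20 nM, with 0.0268% and 2.55% of all genes. Without 20 nM replicate 3, 70 of the 110 genes were called lower at 10 nM and 74 at 20 nM, while 4.07% and 13.9% of all genes were. That fit had 2 surrogate variables. With 1 surrogate variable and the same library left out, a setting chosen after seeing the data, the counts were 16 and 43, with 0.596% and 7.99% of all genes.

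Between 20 nM and 10 nM, 0 of the 110 genes were called in either direction by edgeR, where 2.79% of all genes were. An unadjusted p under 0.05 was reached by 5 of the 110 and by 14.9% of all genes. DESeq2 also called 0, with 3 at an unadjusted p under 0.05, and it called 472 of all 14943 genes. The 5 were SNX8, CPXM1, SUPT6H and PIGM, with negative differences, and MFAP3 with a positive 1. A small step was what the rule asked for, so these counts are no finding. Without 20 nM replicate 3, SNX8 (−0.23, adjusted p = 0.0271 in edgeR), SUPT6H (−0.18, adjusted p = 0.00223), CPXM1 (−0.16, adjusted p = 0.011) and IQGAP3 (−0.15, adjusted p = 0.0184) were called lower at 20 nM than at 10 nM and MFAP3 (0.16, adjusted p = 0.0359) higher, or 5 of 110 where 10% of all genes were called.

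The data did not pin the step down to the limit the rule used. The fitted log2 difference between the doses ran from −0.21 to 0.17, and its 95% interval had a median half-width of 0.19 (0.10 to 0.41). The interval held 0 for 105 of the 110 genes. It lay wholly within 0.2 of 0 for 28 genes and wholly within 0.1 of 0 for 0 of them. For 51 genes it reached −0.2 or lower. In CPM, 3 of the 110 genes had every 20 nM library below every 10 nM library, and 2 had every 20 nM library above. The 3 were PITPNB, PBRM1 and EFR3B, and the 2 were CCDC40 and NUP85.

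**Figure D3:**
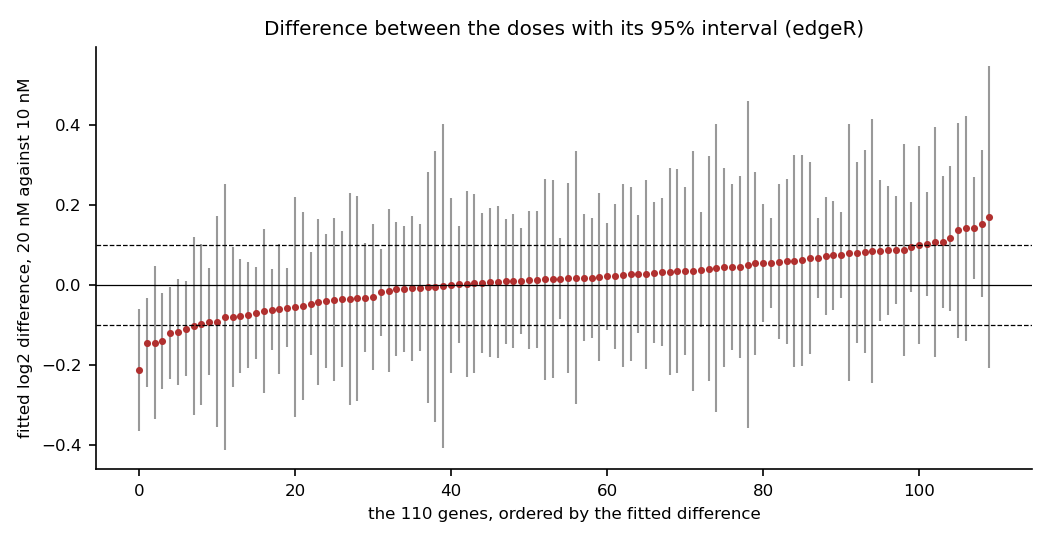
Fitted log2 difference between 20 nM and 10 nM (points) with its 95% interval (lines) for the 110 genes, ordered by the difference on the x axis. Dashed lines mark 0.1 either side of 0. The points run from −0.21 to 0.17, and each of the 110 intervals reaches past a dashed line.

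The roles of the genes were assigned after the genes were known, and CBL, E2F2, EFR3B, HUNK, MFAP3, PIGM, POLA1, SNX8, SS18 and ZNF829 are given library by library although they fell outside the rule for genes with values, a choice made after their values were seen. Only the 110 genes were given roles, so no share over all genes stands beside the sizes of these groups, which are no finding. The largest named group was of mitosis, the centrosome and the cilium, with 14 genes (MKI67, SPC25, DSN1, CENPP, MTBP, E2F2, NEK4, NINL, CEP70, POC1B, RTTN, IQGAP3, TMEM67 and CCDC40). Their log2 ratios at 10 nM lay between −0.32 and −0.20. MKI67, whose protein coats mitotic chromosomes and marks proliferating cells, had the highest CPM of the 110 genes, on a scale that is not divided by transcript length. It measured 478, 433 and 438 CPM in Ctrl, 398, 368 and 384 CPM at 10 nM and 416, 378 and 329 CPM at 20 nM. The means were 450 ± 24.6 CPM in Ctrl, 383 ± 14.9 CPM at 10 nM and 374 ± 43.5 CPM at 20 nM (SD, n = 3 each). The 20 nM libraries straddled the 10 nM values, from 416 CPM in replicate 1 to 329 CPM in replicate 3, so the groups overlapped between the doses.

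SPC25 and DSN1 encode subunits of the kinetochore, the structure that holds chromosomes to the spindle, and CENPP a protein of the constitutive centromere complex. Their means went from 23.5, 23.7 and 17.1 CPM in Ctrl to 20.2, 19.8 and 14.3 CPM at 10 nM. E2F2, a transcription factor of S-phase genes, measured 82.3, 72 and 77.8 CPM in Ctrl, 62.9, 60.3 and 68.2 CPM at 10 nM and 66.3, 59 and 67.3 CPM at 20 nM. It was called lower at 20 nM (log2 −0.30 ± 0.0768 (SE), edgeR adjusted p = 0.0218), as was IQGAP3 (adjusted p = 0.00272), a scaffold protein of proliferating cells. TMEM67, a protein of the ciliary transition zone, and CCDC40, needed for motile cilia, had Ctrl means of 16 and 27.1 CPM.

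DNA replication and repair accounted for 11 genes (POLA1, PRIM1, GINS1, POLQ, XRCC2, DCLRE1C, PARP2, FIGNL1, MND1, RAD54L2 and SYCP2L). DCLRE1C encodes Artemis, the nuclease that opens hairpin ends in end joining. It measured 15, 14.6 and 16.5 CPM in Ctrl, 9.77, 10.9 and 13 CPM at 10 nM and 12.9, 12.6 and 8.84 CPM at 20 nM, which was 73.2% of its Ctrl mean at 10 nM and 74.4% at 20 nM. The 10 nM and 20 nM values overlapped, and replicate 3 was the highest at 10 nM and the lowest at 20 nM.

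POLQ, the polymerase of theta-mediated end joining, measured 33.6, 28.2 and 33.4 CPM in Ctrl, 26.8, 24.2 and 22.9 CPM at 10 nM and 24.8, 22.3 and 23.5 CPM at 20 nM. It was called lower at 20 nM (log2 −0.40 ± 0.0989 (SE), edgeR adjusted p = 0.017) but not at 10 nM (adjusted p = 0.0884). It carried the 8-mer printed above near the end of its 3′ UTR.

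MND1, a partner of the meiotic recombinase, lay near the step limit with 9.28, 8.93 and 10.6 CPM in Ctrl, 7.34, 8.34 and 6.66 CPM at 10 nM and 7.97, 7.48 and 5.44 CPM at 20 nM. POLA1 and PRIM1 belong to the polymerase that starts DNA strands and GINS1 to the replicative helicase. POLA1 measured 52.6, 48.3 and 52 CPM in Ctrl, 42.6, 44.2 and 42.4 CPM at 10 nM and 43.4, 40 and 43 CPM at 20 nM. POLA1 (adjusted p = 0.0131), GINS1 (adjusted p = 0.0143), PARP2 (adjusted p = 0.00501), which senses DNA breaks, and RAD54L2 (adjusted p = 0.0303) were called lower at 20 nM by edgeR, and none of the 11 genes was at 10 nM.

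Chromatin and transcription gave 12 genes (EZH1, EZH2, PBRM1, SS18, SUPT6H, CCNT1, AFF1, GABPB2, MED12L, KANSL1L, TTF1 and HIVEP1), of which PBRM1, SS18 and SUPT6H were called lower at 10 nM. PBRM1 (gene at chr3:52545352-52685917, minus strand, GRCh38) is the bromodomain subunit of the PBAF remodelling complex. It measured 148, 138 and 150 CPM in Ctrl, 115, 117 and 117 CPM at 10 nM and 112, 111 and 105 CPM at 20 nM. The 10 nM libraries lay within 115 to 117 CPM, and the mean stood at 80.1% of its Ctrl mean at 10 nM and 75.2% at 20 nM. The model gave log2 −0.31 ± 0.0429 (SE) at 10 nM (edgeR adjusted p = 0.0045).

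SUPT6H, a histone chaperone that travels with RNA polymerase II, measured 208, 214 and 211 CPM in Ctrl, 180, 174 and 173 CPM at 10 nM and 160, 152 and 198 CPM at 20 nM. Replicate 3 of 20 nM, at 198 CPM, lay above all 10 nM libraries and below the Ctrl libraries, and the other 20 nM libraries lay below all 10 nM libraries. SUPT6H carried an 8-mer. SS18, a subunit of BAF remodelling complexes, measured 97.6, 92.2 and 96.1 CPM in Ctrl, 83, 76.6 and 77.8 CPM at 10 nM and 82.1, 77.8 and 65.3 CPM at 20 nM, and there the same library was the lowest.

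CCNT1 encodes cyclin T1, which with CDK9 forms the elongation factor P-TEFb. It held 5 matches of 7 or 8 bases in its longest 3′ UTR, of which 1 is coding in its canonical transcript. It measured 71.8, 72.1 and 66.1 CPM in Ctrl, 56.3, 59.7 and 55.5 CPM at 10 nM and 60.4, 63.5 and 44.8 CPM at 20 nM. Replicates 1 and 2 of 20 nM lay above all 10 nM libraries and replicate 3 below them. GABPB2, a subunit of the ETS factor GABP, measured 10.5, 9.07 and 9.74 CPM in Ctrl, 8.03, 7.86 and 7.98 CPM at 10 nM and 8.25, 7 and 8.21 CPM at 20 nM. Neither gene was called at either dose, with adjusted p from edgeR of 0.0753 and 0.235 at 10 nM.

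EZH2 and EZH1 are the alternative catalytic subunits of the Polycomb complex PRC2, which methylates histone H3. EZH2 measured 137, 124 and 133 CPM in Ctrl, 117, 108 and 113 CPM at 10 nM and 109, 101 and 112 CPM at 20 nM. EZH1 measured 29.2, 25.4 and 27.6 CPM in Ctrl, 24.3, 22.6 and 24.4 CPM at 10 nM and 24.4, 23.4 and 20.9 CPM at 20 nM. Both stood in a like proportion to Ctrl, with 85.5% of its Ctrl mean at 10 nM and 81.7% at 20 nM for EZH2 and 86.6% of its Ctrl mean at 10 nM and 83.5% at 20 nM for EZH1. Neither had a 7-mer or 8-mer in its 3′ UTR, and EZH1 had a 7-mer in its coding sequence. EZH2 was called lower at 20 nM (edgeR adjusted p = 0.00721). At the limit of the drop, TTF1, a factor that ends transcription of ribosomal RNA genes, measured 37.7, 36.1 and 35.4 CPM in Ctrl, 33.8, 30.3 and 30.9 CPM at 10 nM and 30.3, 34.1 and 26.4 CPM at 20 nM. HIVEP1, a zinc finger factor that binds enhancers, measured 24.8, 22.4 and 23.6 CPM in Ctrl, 18.9, 20.7 and 22 CPM at 10 nM and 19.5, 21.9 and 20.3 CPM at 20 nM.

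**Figure D4:**
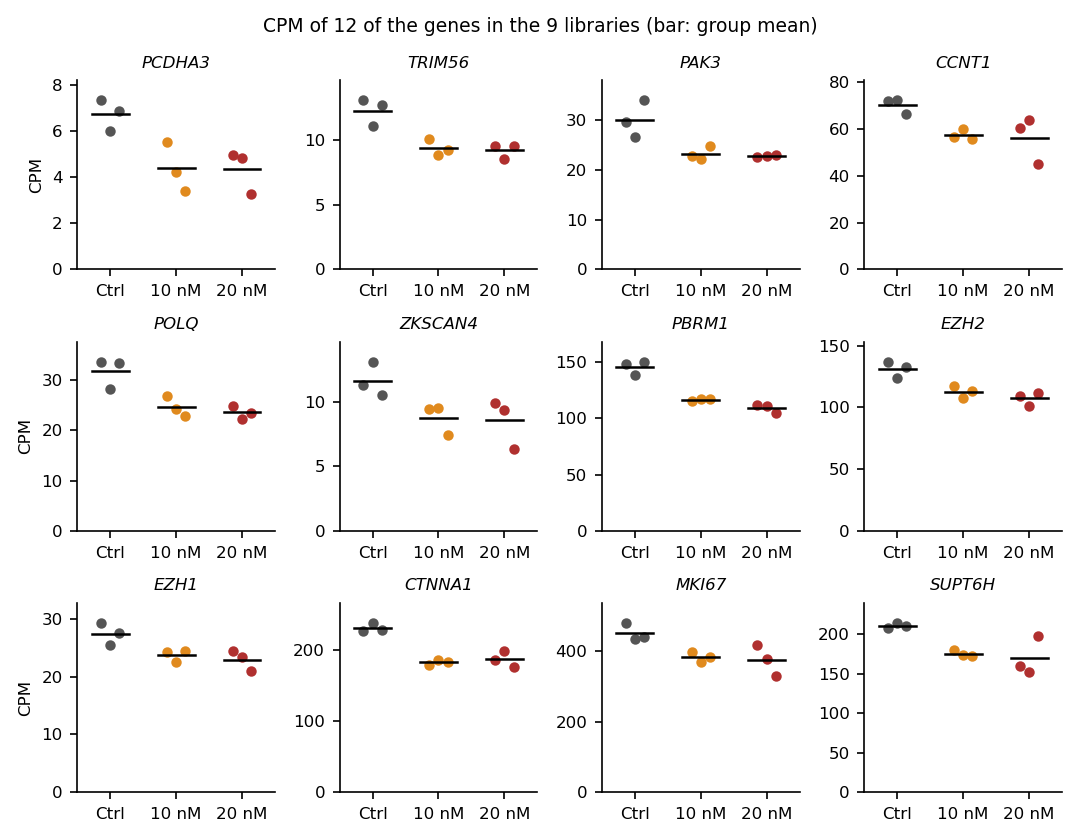
CPM (y axis, from 0) in the 3 libraries of Ctrl, 10 nM and 20 nM (x axis) for 12 of the 110 genes; each point is a library, in the order of its replicate number, and bars are group means. All mimic points lie below all Ctrl points, as the rule required, and the 10 nM and 20 nM points overlap in every panel except that of PBRM1.

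Genes of adhesion, actin and small GTPase signalling numbered 13 (CTNNA1, PCDHA3, LMO7, PAK3, TIAM1, RASAL2, RASEF, AIF1L, SNTB2, ADGRV1, HOOK1, C2CD5 and HUNK). CTNNA1 (gene at chr5:138610967-138935034, plus strand, GRCh38) encodes the alpha-catenin that ties cadherins to actin. It measured 227, 238 and 229 CPM in Ctrl, 180, 186 and 183 CPM at 10 nM and 186, 199 and 177 CPM at 20 nM. Its means were 231 ± 5.93 CPM in Ctrl, 183 ± 2.79 CPM at 10 nM and 187 ± 10.8 CPM at 20 nM (SD, n = 3 each), and it was called lower at both doses (log2 −0.33 ± 0.0426 (SE) at 10 nM, edgeR adjusted p = 0.0036). It held no 6-mer or longer match in its 3′ UTR.

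PCDHA3, a clustered protocadherin of neuronal cell surfaces, had the lowest ratio of the 110 genes. It measured 7.33, 5.99 and 6.87 CPM in Ctrl, 5.52, 4.24 and 3.39 CPM at 10 nM and 4.98, 4.85 and 3.25 CPM at 20 nM. The reads behind it were few, down to 59 counts in a library, and the alpha protocadherins share their constant exons, so the split of reads between them is uncertain. Its adjusted p was 0.145 at 10 nM in edgeR.

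PAK3, a kinase activated by Rac and Cdc42 in dendritic spines and 1 of the study's putative targets, measured 29.6, 26.6 and 34 CPM in Ctrl, 22.8, 22.1 and 24.9 CPM at 10 nM and 22.5, 22.9 and 23.1 CPM at 20 nM. The 20 nM libraries lay within 22.5 to 23.1 CPM, inside the range of the 10 nM libraries. The mean stood at 77.4% of its Ctrl mean at 10 nM and 76% at 20 nM, and the fitted log2 difference was −0.38 ± 0.0851 (SE) at 10 nM (edgeR adjusted p = 0.0651) and −0.42 ± 0.0966 (SE) at 20 nM (adjusted p = 0.0122). Its 3′ UTR held both 8-mers printed above. That list of targets was drawn by the study from these libraries and is not independent of them.

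RASAL2, a GTPase-activating protein for Ras, measured 29, 27.2 and 27.6 CPM in Ctrl, 25.2, 23.2 and 20.7 CPM at 10 nM and 23.9, 22.2 and 19.8 CPM at 20 nM. HUNK, a kinase of the AMPK-related family, measured 46.8, 46.8 and 45.8 CPM in Ctrl, 41.3, 41.1 and 38.3 CPM at 10 nM and 39.1, 40.8 and 44.8 CPM at 20 nM, with replicate 3 of 20 nM just under the lowest Ctrl library. ADGRV1, a very large adhesion receptor, measured 28.8, 25.6 and 24.9 CPM in Ctrl, 23.8, 22.2 and 22.9 CPM at 10 nM and 24.1, 21.7 and 19.8 CPM at 20 nM. None of these was called at 10 nM, and HUNK alone of the 3 was at 20 nM (edgeR adjusted p = 0.0451).

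Membrane, lipid and transport genes numbered 10 (PITPNB, SNX8, EFR3B, PIGM, GDPD1, CLCN5, SLC22A5, SLC4A8, MFSD4B and CAVIN4) and held 4 of the 10 calls at 10 nM. PITPNB (gene at chr22:27851669-27920134, minus strand, GRCh38) carries phosphatidylinositol between membranes. It measured 105, 105 and 112 CPM in Ctrl, 81.4, 85.8 and 81.3 CPM at 10 nM and 81.2, 75.1 and 81 CPM at 20 nM. It stood at 77.1% of its Ctrl mean at 10 nM and 73.6% at 20 nM (log2 −0.38 ± 0.0487 (SE) at 10 nM, edgeR adjusted p = 0.0036) and held no 7-mer or 8-mer in its 3′ UTR or coding sequence. EFR3B, which anchors a phosphatidylinositol kinase at the plasma membrane, measured 80.4, 77.6 and 79.7 CPM in Ctrl, 68.1, 68.3 and 67.7 CPM at 10 nM and 64.3, 65.5 and 67.1 CPM at 20 nM. PIGM, a mannosyltransferase of GPI anchor synthesis, measured 53.5, 56.2 and 53.5 CPM in Ctrl, 46, 45.5 and 46.9 CPM at 10 nM and 41, 43.2 and 46.4 CPM at 20 nM.

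SNX8, a sorting nexin of endosomes, measured 53.2, 50.8 and 50 CPM in Ctrl, 38.3, 37.8 and 43.7 CPM at 10 nM and 33.4, 33.8 and 49.3 CPM at 20 nM. Replicates 1 and 2 of 20 nM lay below all 10 nM libraries, and replicate 3 lay close to Ctrl, so that the equal means of the doses rested on that library. CLCN5, a chloride-proton exchanger of endosomes with an 8-mer, measured 39.5, 36.3 and 41.8 CPM in Ctrl, 31.6, 31.5 and 33.7 CPM at 10 nM and 34.2, 33.5 and 33.9 CPM at 20 nM, and was not called at either dose. SLC22A5, the carnitine carrier of the plasma membrane, and SLC4A8, a bicarbonate carrier, were called lower at 20 nM (edgeR adjusted p = 0.0221 and 0.00966).

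Genes of ubiquitin and cell death were CBL, CUL5, TRIM56, CFLAR and TNFAIP8. TRIM56, a ubiquitin ligase of antiviral signalling, measured 13.1, 11.1 and 12.7 CPM in Ctrl, 10.1, 8.89 and 9.26 CPM at 10 nM and 9.55, 8.52 and 9.57 CPM at 20 nM. Its 3′ UTR of 8387 bases held 2 8-mers and 2 7-mers, and it was called lower at 20 nM (log2 −0.42 ± 0.121 (SE), edgeR adjusted p = 0.0358). CBL, a ligase that turns over receptor tyrosine kinases, measured 117, 108 and 122 CPM in Ctrl, 96.1, 95.8 and 92.5 CPM at 10 nM and 84.9, 89.7 and 92.7 CPM at 20 nM. It was called lower at both doses (edgeR adjusted p = 0.0176 at 10 nM). CUL5, the scaffold of a family of ubiquitin ligases, measured 53.1, 52.9 and 60.4 CPM in Ctrl, 48.4, 49.1 and 45.4 CPM at 10 nM and 49.5, 46.2 and 39.5 CPM at 20 nM and was called at neither. CFLAR, an inhibitor of caspase activation at death receptors, had means of 27.1, 22.8 and 23.7 CPM in Ctrl, 10 nM and 20 nM.

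Metabolic, secreted and signalling proteins numbered 10 (PCCA, PHKA2, PGGT1B, DUOX1, PDE6A, CTSZ, CPXM1, KAZALD1, MC1R and MFAP3). DUOX1, a hydrogen peroxide generating oxidase, measured 8.85, 6.7 and 7.08 CPM in Ctrl, 6.04, 4.8 and 4.99 CPM at 10 nM and 5.81, 4.37 and 5.72 CPM at 20 nM, and KAZALD1, a secreted protein with a Kazal domain, measured 7.45, 8.4 and 7.07 CPM in Ctrl, 5.92, 5.67 and 5.11 CPM at 10 nM and 5.09, 6.17 and 5.06 CPM at 20 nM. Both were low in level, and their adjusted p at 10 nM in edgeR was 0.186 and 0.164. CPXM1, a secreted protein related to carboxypeptidases, measured 203, 214 and 203 CPM in Ctrl, 175, 178 and 176 CPM at 10 nM and 147, 168 and 197 CPM at 20 nM. It was called lower at both doses, and its 20 nM libraries spread from 147 to 197 CPM against 175 to 178 CPM at 10 nM.

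PHKA2, a regulatory subunit of phosphorylase kinase, measured 35.7, 34.5 and 31.2 CPM in Ctrl, 30.4, 30.2 and 27.4 CPM at 10 nM and 28.1, 26.5 and 27.7 CPM at 20 nM, near the step limit. PDE6A, known as a phosphodiesterase of photoreceptors, was near the level limit with 6.03, 6.02 and 5.9 CPM in Ctrl, 4.96, 5.13 and 5.12 CPM at 10 nM and 5.85, 4.19 and 4.28 CPM at 20 nM. MFAP3, a protein associated with microfibrils, measured 75.2, 78.4 and 80.4 CPM in Ctrl, 65.4, 68.8 and 62.7 CPM at 10 nM and 73.5, 73.6 and 48.9 CPM at 20 nM. Replicates 1 and 2 of 20 nM lay above all 10 nM libraries and replicate 3 below them.

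Genes of RNA processing and transport were EXOSC8, NUP85, TRIT1, RBM43 and ZCCHC18. EXOSC8 is a subunit of the exosome that degrades RNA, NUP85 a subunit of the nuclear pore and TRIT1 an enzyme that modifies transfer RNA. ZCCHC18, an X-linked gene with a CCHC zinc finger, measured 9.65, 7 and 8.76 CPM in Ctrl, 6.84, 6.11 and 5.12 CPM at 10 nM and 6.02, 6.12 and 6.5 CPM at 20 nM (adjusted p = 0.157 at 10 nM in edgeR). None of the 5 genes was called at either dose by edgeR, although 4 had an unadjusted p under 0.05 at 10 nM.

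The remaining 22 genes were little described, pseudogenes or without a symbol. They were CDIN1, PMFBP1, KIAA1328, WDR17, WDR27, C20orf96, CCDC136, TMEM242, GOLGA6L9, HNRNPA1L2, the pseudogenes CROCCP3, STAG3L3, PI4KAP1, LSP1P4 and CSPG4P10, and ENSG00000269737.2, ENSG00000288227.1, ENSG00000275949.5, ENSG00000284946.1, ENSG00000285253.1, ENSG00000279765.3 and ENSG00000273656.4. Pseudogenes share reads with the genes they were copied from, and their counts are uncertain. ENSG00000269737.2 measured 5.54, 7.36 and 5.31 CPM in Ctrl, 5.31, 4.13 and 4.41 CPM at 10 nM and 5.15, 4.22 and 4.82 CPM at 20 nM, and ENSG00000288227.1 measured 11.6, 10.2 and 11.1 CPM in Ctrl, 9.24, 8.64 and 7.78 CPM at 10 nM and 10.1, 7.88 and 9.4 CPM at 20 nM. Neither was called. Of this group PI4KAP1, WDR27 and CCDC136 were called lower at 20 nM (edgeR adjusted p = 0.0181, 0.0458 and 0.0112).

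The zinc finger genes were ZKSCAN4, ZNF793, ZNF808, ZNF226, ZSCAN16, ZNF445, ZNF829 and ZNF470, which is 8 of 503 genes of this family of DNA-binding proteins at 5 CPM or more. ZKSCAN4 measured 11.3, 13.1 and 10.5 CPM in Ctrl, 9.45, 9.5 and 7.4 CPM at 10 nM and 9.94, 9.38 and 6.35 CPM at 20 nM. ZNF793 measured 28.1, 23.7 and 25 CPM in Ctrl, 19.8, 19.3 and 19.5 CPM at 10 nM and 21.3, 20.3 and 16.2 CPM at 20 nM. In both, replicate 3 of 20 nM was the lowest of the 9 libraries.

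ZNF808 measured 10.4, 10.7 and 8.85 CPM in Ctrl, 7.88, 7.81 and 7.23 CPM at 10 nM and 8.57, 7.93 and 5.14 CPM at 20 nM, and ZNF226 measured 25.1, 24.1 and 23.1 CPM in Ctrl, 20.7, 18.9 and 16.7 CPM at 10 nM and 20, 20.6 and 15.9 CPM at 20 nM. ZNF829, with the most coding 8-mers, measured 11, 11.5 and 11 CPM in Ctrl, 9.9, 9.22 and 9.8 CPM at 10 nM and 9.92, 9.19 and 9.55 CPM at 20 nM. None of the 8 was called at 10 nM by edgeR, and none at 20 nM, and the lowest adjusted p was that of ZNF793, with 0.0562 and 0.0507. An 8-mer was present in the coding sequence of 7 of the 8 genes, all but ZSCAN16. In 493 zinc finger genes of at least 5 CPM the share was 30.2%, and in the other genes 3.32%.

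Matches to the seed were counted over all of the chosen genes, since sequence played no part in the rule. Of the 110 genes 100 matched the annotation by identifier and 6 by symbol, and 99 had an annotated 3′ UTR of at least 50 bases. A 7-mer or 8-mer to miR-1229-3p was present in the 3′ UTR of 34 of these 99 (34.3%, exact 95% binomial interval 25.1 to 44.6%, counting error only). The share was 23.3% in the 11277 genes of at least 5 CPM with a 3′ UTR. In the 206 genes that were lower again at 20 nM it was 53.9%. An 8-mer was present in 11.1%, 4.81% and 20.4% of the same groups. These are counts over genes, and no test was made of the differences.

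The 3′ UTRs of the chosen genes were longer than usual, with a median of 2257 bases against 1634 in all genes of at least 5 CPM and 2945 in the genes lower again at 20 nM. Split at 979 and 2522 bases, the share with a match was 12.5%, 14.3% and 57.4% from the shortest to the longest of the 3 length classes of the chosen genes. All genes of at least 5 CPM had 5.77%, 19.1% and 45.1%, and the genes lower again at 20 nM 31.6%, 34% and 69.5%. The share in the middle class of the chosen genes, 4 of 28, was thus below that of all genes. The seed of the other arm of the hairpin, miR-1229-5p, served as a comparison, with the 8-mer CTACCCAA and the 7-mers CTACCCA and TACCCAA. It matched 29.3% of the chosen genes, 16.1% of all genes of at least 5 CPM and 20.4% of those lower again at 20 nM. From the shortest to the longest class its shares were 8.33%, 14.3% and 48.9% in the chosen genes. They were 3.88%, 13% and 31.5% in all genes of at least 5 CPM and 2.63%, 6% and 32.2% in those lower again. Over all lengths the share of the chosen genes was thus above that of all genes for the seeds of both arms.

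Coding sequences of the chosen genes were also long, with a median of 2181 bases against 1443, and 55 of the 99 with a coding sequence fell in the longest of 3 equal classes of all genes (over 1941 bases). A 7-mer or 8-mer to miR-1229-3p was present in the coding sequence of 40.4% of the chosen genes, 20% of all genes of at least 5 CPM and 31.1% of those lower again at 20 nM. In that class the shares were 54.5%, 34.5% and 47.5%, in the middle class 33.3%, 17.8% and 27.4%, and in the shortest, with 1 of 17 chosen genes, 5.88%, 7.74% and 7.14%. For miR-1229-5p they were 15.2%, 14.6% and 23.8% over all lengths. Length moved with level in all genes too, as the median log2 ratio at 10 nM was 0.0245, −0.000272 and −0.0183 from the shortest to the longest class of coding sequences. The part of length in these shares was not tested.

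**Figure D5:**
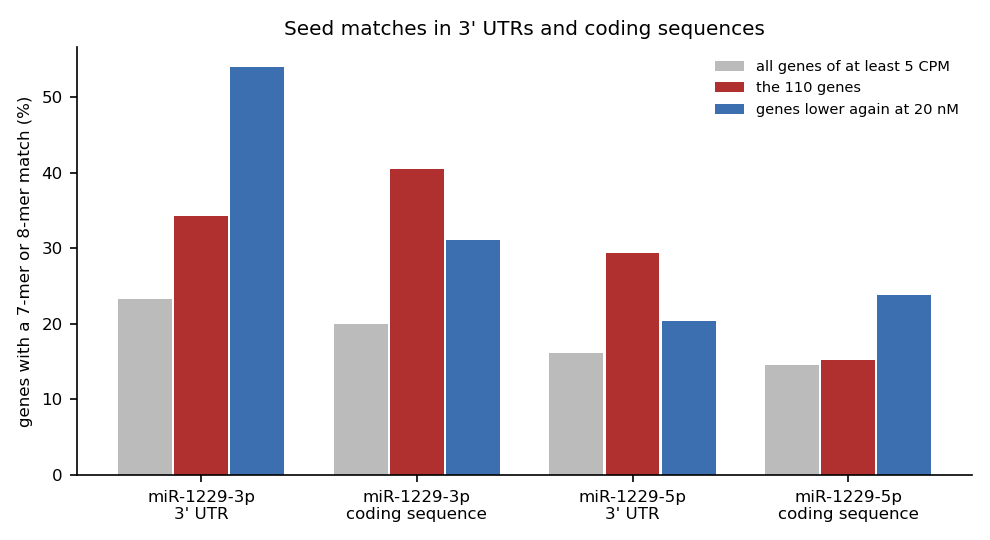
Share of genes (y axis, percent) with a 7-mer or 8-mer match to the seed of each arm of the hairpin in the longest 3′ UTR or the coding sequence (x axis), for all genes of at least 5 CPM (grey), the 110 genes (red) and the genes lower again at 20 nM (blue); shares of all genes counted, with no error bar. For miR-1229-3p in the 3′ UTR the red bar (34.3%) lies between the grey (23.3%) and the blue (53.9%), and in the coding sequence it is the highest (40.4%).

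By place, 20 of the 110 genes had a 7-mer or 8-mer in the 3′ UTR only, 26 in the coding sequence only and 14 in both, and 50 had none in either, among them 11 without an annotated coding sequence. The drop was next read by the strongest match in the 3′ UTR alone, over the 99 genes with one annotated. The median log2 ratio at 10 nM was −0.29 in the 11 genes with an 8-mer in the 3′ UTR, −0.25 and −0.24 in those with either kind of 7-mer at best, −0.26 with a 6-mer and −0.24 in the 51 without a match in the 3′ UTR, some of which had coding matches. The step between the doses had medians of −0.03 to −0.06 in these groups. Since the rule bounded both values, their likeness across the kinds of match is a description of the chosen genes.

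Few gene families or pathways held many of the 110 genes. Of the 503 zinc finger genes 1.59% were among them and of 199 solute carriers 1.01%, against 0.942% of all genes of at least 5 CPM. Transmembrane TMEM genes gave 2 of 152, CCDC and FAM genes 2 of 185 and ubiquitin ligases of the RNF, TRIM and F-box kinds 1 of 147. None of the 81 cytosolic ribosomal protein genes, 79 mitochondrial ribosomal protein genes, 85 Rab and TBC1D genes, 32 kinesins, 48 DDX and DHX helicases, 60 protein phosphatase genes, 45 ubiquitin-specific peptidases, 42 MAP kinase pathway genes or 12 clone-named genes was among them. Among the lists, chromatin regulators gave EZH1 and EZH2 of 73 genes, synapse formation PAK3 of 42 and the putative targets PAK3 of 11. The genes left out by name, SYNJ2BP, MTOR, MTX3, HIPK2 and SLC25A20, are all putative targets named in the paper. Their exclusion lowered the count for the targets, since SYNJ2BP met the other conditions. A further 7 of the 11 targets were among the genes lower again at the higher dose. The 40 genes of microRNA silencing, 36 of the outer mitochondrial membrane and its contacts with the ER, 25 neuroblastoma transcription factors and 51 genes of WNT, TGF-beta, BMP and Notch signalling gave none. SYNJ2BP, which the paper relates to contacts of mitochondria with the ER, could not be counted, as it was left out by name. The count for the outer membrane list therefore cannot show whether such genes met the other conditions. In that list 1 gene was lower again at the higher dose. In these lists, edgeR called lower at 10 nM 8 of the 11 putative targets (median fitted log2 −0.38) and 1 gene or none of each other list, 60 of all 11676 genes of at least 5 CPM (median 0.005), and none of the lists had a gene called higher where 30 of all genes were. With the replicate block 1 of the 11 putative targets and 3 of the 11676 genes were called lower at 10 nM. The study picked these targets among the most significantly lowered genes of these same libraries. Their share of calls was therefore set in part by that choice and is no independent evidence.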

How the data were processed

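PolyA RNA-seq of SH-Sy5y cells gave 9 libraries, 3 in each of Ctrl, 10 nM and 20 nM. Per the study's methods and the labels, the authors quantified reads with Salmon on GRCh38.p13 (Ensembl 107), summed transcripts by gene symbol and deposited estimated counts per gene, of which 88.8% of the values were not whole numbers. The authors' corrected log values and columns of fold changes and p-values were not used. CPM was computed from the estimated counts and the total of each library, with no length or composition scaling. Library totals were 17423969 to 28192775, and the lowest count of a chosen gene in a library was 59.

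For the models each estimated count was rounded to a whole number. All 14943 genes passed edgeR's filter on low counts and were fitted with edgeR 4.0.16 (R 4.3.3), TMM scaling, the quasi-likelihood test and 1 surrogate variable from sva 3.50.0, in 1 model of all 9 libraries, with Benjamini-Hochberg adjustment and a threshold of 0.05. The fit was tested on simulated counts, drawn independently for each library, with the same change at both doses. That simulation held no pairing and no library that stood apart, so it does not bear on how these moved the calls. DESeq2 1.42.0 was an alternative. Deviations of Ctrl and 10 nM libraries of the same number correlated at 0.177, 0.142 and 0.185, and those of Ctrl and 20 nM at 0.116, 0.107 and 0.116 across genes, so the numbers were taken to pair these libraries, and the fit with the number as a block is given where it changed a count. Alternatives were other scalings, filters, numbers of surrogate variables, limits of the rule, kinds of match and each library left out in turn.

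Seed matches were searched in GENCODE 44 transcripts on GRCh38, in the longest 3′ UTR of at least 50 bases and the coding sequence of each gene. This annotation is later than the one used for counting. The mature microRNA came from RefSeq. Values by library are given for the 12 chosen genes with the lowest ratio at 10 nM, those with a 3′ UTR 8-mer (the 10 lowest), the 5 of highest Ctrl CPM, those nearest each limit, and members of the gene lists. The genes and lists were chosen with earlier results of these data known, and the roles and partner subunits were assigned after the genes were seen.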

Additional observations from a re-analysis of the deposited data

How the results depend on the processing

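Calls depended on the model, the number of genes on the limits. At 10 nM, where 10 genes were called lower, the count was 0 with no surrogate variables, 0 with the replicate block, 21 with DESeq2 and 3 to 70 with 1 library left out. Over all genes, called either way, these fits gave 5, 3, 218 and 34 to 1318, against 97. Among the 110 genes the count was 4, 6, 3, 4 and 70 without Ctrl replicate 1, Ctrl replicate 3, 10 nM replicate 2, 10 nM replicate 3 and 20 nM replicate 3. At 20 nM, where 29 were called, it was 12 with no surrogate variables, 45 with genes under 5 CPM removed before the fit, 41 with the replicate block and 14 to 74 with 1 library left out, at 14 without 20 nM replicate 2 and 74 without 20 nM replicate 3. Over all genes these gave 954, 2437, 2039 and 1074 to 4370, against 2074. The step gave 0 to 5 calls with 1 library left out, 5 only without 20 nM replicate 3. Over all genes it gave 175 to 1495, against 417, with 1495 without that library. With 1 surrogate variable and that library left out, chosen after seeing the data, the counts were 16 at 10 nM, 43 at 20 nM and 1 for the step. Over all genes, called either way, they were 160, 2656 and 462. The cause of these shifts was not tested. Between 10 nM and 20 nM, libraries of the same number correlated at 0.174, 0.0288 and 0.176, and those of different numbers at −0.17 to 0.0321. Replicates 1 and 3 thus stood above every pair of different numbers, as the pairing with Ctrl would have it, and replicate 2 did not. The replicate block gave 0 calls of the step among the chosen genes.

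The rule found 196 genes with a drop limit of −0.15, 29 with −0.3, 53 with a step limit of 0.05 and 172 with 0.15. With 1 library left out it found 91 to 218, with 215 without Ctrl replicate 2, 218 without 10 nM replicate 1 and 184 without 20 nM replicate 3, 86 of them among the 110. With 1 library left out 67 to 103 of the 110 genes were kept. TMM-scaled CPM gave 105 genes, 86 of them among the 110, and DESeq2 size factors 95, 81 of them among the 110. Group medians gave 135 genes, 67 of them among the 110. The share with a 3′ UTR match was 11.1% for 8-mers, 48.5% for 6-mers or longer and 29.9 to 44.9% with 1 library left out. Of the values under the alternatives for the 33 genes that the naming rule chose, 92 passed the threshold only under the alternative and 41 only in the model reported. The rule itself fixed the sign of the values against Ctrl. Of the 594 values of the step 91 had the other sign, none of them called.

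With 3 libraries a group, the interval of the step was wider than the limit of 0.1 for the 110 genes, so an equal level at both doses was not shown for any of them. Counting error was largest for genes near 5 CPM, and 26 of the 110 were under 10 CPM.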

Other observations

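Coding 8-mers were frequent in the zinc finger family beyond the 8 genes described. Of 493 zinc finger genes of at least 5 CPM with a coding sequence, 344 had no coding 8-mer, 94 had 1, 25 had 2 and 30 had 3 or more. The median log2 ratio of the 10 nM to the Ctrl mean in these classes was −0.07, −0.09, −0.10 and −0.20, and that of the 20 nM to the Ctrl mean −0.17, −0.27, −0.28 and −0.40. The classes held 1, 2, 3 and 2 of the 110 genes and 18, 4, 2 and 9 of the genes lower again at 20 nM. In other genes the 10 nM medians were 0.01 with no coding 8-mer (10500 genes) and −0.02 with 1 (352 genes). The classes were formed after the zinc finger windows had been seen, the genes share sequence with one another, and no test was made.

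Several of the 110 genes encode subunits of known complexes, and 46 partner subunits of 12 complexes were read for comparison after the genes were known. The partners had a median log2 ratio of −0.04 at 10 nM, 30 of them had a lower mean at 10 nM than in Ctrl, and 3 (PRIM2, NUF2 and RAD51B) had all mimic libraries below all Ctrl libraries. Beside EZH1 and EZH2, the PRC2 subunits EED and SUZ12 had log2 ratios of 0.06 and −0.06. Beside PBRM1, the PBAF subunits ARID2, BRD7 and PHF10 had −0.18, −0.01 and −0.04. CDK9, the kinase partner of CCNT1, had −0.04. Beside GINS1, GINS2, GINS3 and GINS4 had −0.13, −0.25 and −0.08. Beside CTNNA1, CTNND1 had −0.24 at 10 nM and −0.14 at 20 nM, and CTNNB1 (beta-catenin) 0.13 and 0.57, with a fitted log2 difference of 0.63 at 20 nM (edgeR adjusted p = 2.91e-05).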
